A study of Homo sapiens with 6 samples.

Results

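CTCF peaks of clone E4 were compared with those of wild-type cells of the same colon cancer line, 1 list of broad peaks against the other. Of the 38645 peaks of the wild-type list (WT), the 37735 on chromosomes 1 to 22 were used, and of the 39434 peaks of the E4 list, 38209. A peak counted as having a partner when it overlapped a peak of the other list by at least 1 bp. The series holds 6 samples, of which these 2 CTCF libraries were used here. The cells are HCT-116, an established human colon cancer line grown in McCoy's 5A medium and given no treatment. The labels call WT wild type, and they give E4 the genotype CTCF mutation without its position, while the title of the series concerns a distal CTCF site and the gene MYC. E4 is a single clone, so what belongs to the mutation and what belongs to the clone cannot be told apart. The D3 clone and the libraries made without antibody were not analysed here.

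CTCF is a DNA-binding protein with a row of zinc fingers that recognises a long, partly conserved motif. It marks insulators and domain borders, and where the ring-shaped cohesin complex meets it on chromatin, loops are anchored. Most strong CTCF sites are occupied in many cell types, while weaker sites vary more between cells.

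Each population had 1 library, so no difference below has a replicate check, and no test was made. Shares carry exact (Clopper-Pearson) 95% intervals and medians carry order-statistic 95% intervals, which cover counting error over peaks and not the spread between cultures. No read numbers came with the peak lists, and the depth is unknown. The E4 list held the higher values: its median −log10 q was 7.90 against 5.39 in WT, and its median fold enrichment was 6.40 against 5.26, both as the authors' peak caller gave them. Its peaks were also wider, with a median of 757 bp against 645 bp. How far these differences between the lists set the shares below was not tested. Peaks were therefore ranked within their own list, as the percentile of −log10 q with 100 for the strongest.

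Most CTCF peaks of either population had a partner. In WT, 32316 peaks (85.6%, 95% interval 85.3% to 86.0%) overlapped an E4 peak and 5419 did not, which is the background share of 14.4% for the counts of unmatched WT peaks below. In E4, 32068 peaks (83.9%, 83.6% to 84.3%) overlapped a WT peak and 6141 did not, a background share of 16.1%. Unmatched peaks came mostly from the weak end of their lists. The median rank was 13.4 for unmatched WT peaks (12.8 to 13.9) and 56.7 for matched ones (56.2 to 57.2). In E4 it was 13.3 (12.9 to 13.8) and 57.9 (57.4 to 58.4). Of the weakest decile, 58.5% of WT peaks and 63.6% of E4 peaks lacked a partner. In the fifth decile the shares were 7.90% and 7.46%, and from there upward the unmatched share was larger in WT. In the seventh decile it was 2.09% in WT and 0.733% in E4, with intervals of 1.66% to 2.60% and 0.487% to 1.06%. The strongest decile held 1 unmatched WT peak in 3774, and the 2 strongest deciles of E4 held 0 unmatched peaks, which allows a share of up to 0.0965% in each. Above the median rank, 299 WT peaks and 137 E4 peaks had no partner.

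**Figure D1:**
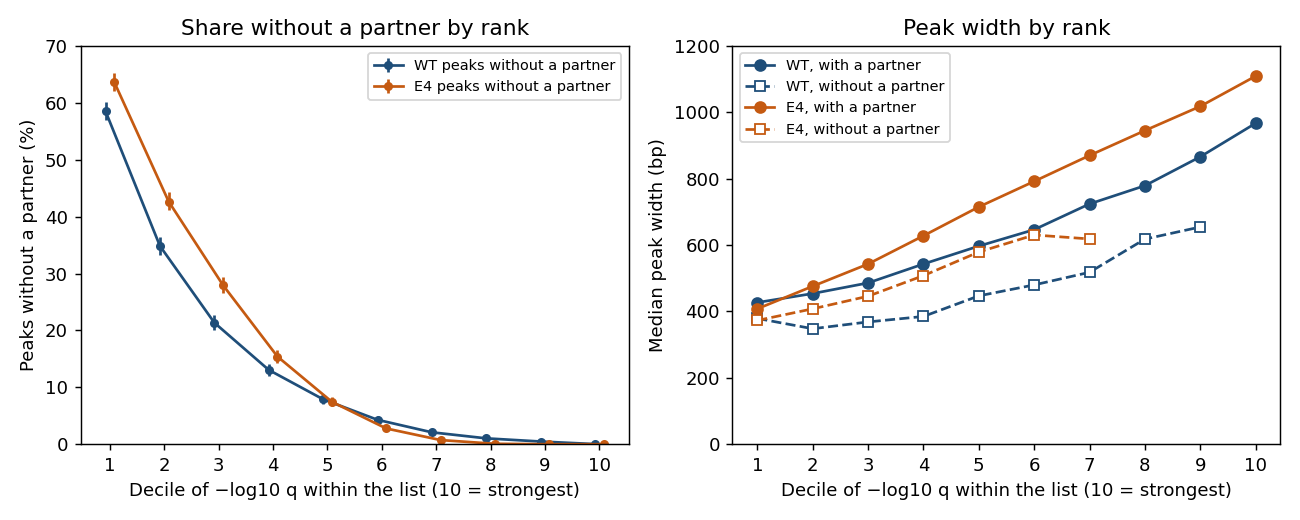
Left, the share of peaks without a partner (%) per decile of −log10 q within each list, with exact 95% intervals. Right, the median width (bp) of peaks with and without a partner in the same deciles, for deciles that hold enough unmatched peaks. The unmatched share ran from 58.5% (WT) and 63.6% (E4) in the weakest decile to 1 WT peak and 0 E4 peaks in the strongest, and unmatched peaks were the narrower ones in each decile drawn.

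Unmatched peaks were narrow. Their median width was 382 bp in WT against 686 bp for matched peaks, and 421 bp in E4 against 822 bp. The difference was smaller among peaks of like rank: within the weakest 2 deciles the medians were 364 bp against 445 bp in WT and 387 bp against 450 bp in E4. Of WT peaks up to 300 bp wide, 50.1% lacked a partner, and of E4 peaks of that width, 60.6%. At the other end, 5 of 907 WT peaks and 9 of 1273 E4 peaks wider than 2 kb were unmatched.

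Unmatched peaks also lay farther from their neighbours. The gap to the nearest peak of the same list had a median of 18.3 kb for unmatched and 15.0 kb for matched WT peaks, a ratio of 1.22. In E4 the medians were 19.96 kb and 15.1 kb, a ratio of 1.32. Among peaks more than 100 kb from any other peak of their list, 21.3% were unmatched in WT and 26.7% in E4, against 13.7% and 13.8% of peaks within 2 kb of a neighbour. Isolated peaks were also weaker, with a median rank of 37.4 in WT beyond 100 kb against 55.8 within 2 kb. Within the weakest 2 deciles the trend with spacing was not seen in WT, where the share was 51.9% (47.3% to 56.4%) within 2 kb and 45.9% (42.0% to 49.8%) beyond 100 kb. In E4 these shares were 58.4% and 55.5%, with overlapping intervals. Above the median rank, the median gap was 22.2 kb (16.8 to 25.96) for unmatched against 13 kb for matched WT peaks. In E4 it was 19.5 kb (15.97 to 27.5) against 13.1 kb. Unmatched peaks were weaker there too, with a median rank of 58.7 against 75.3 in WT. In the sixth decile the medians were 20.98 kb against 15.8 kb in WT and 19.4 kb against 16.4 kb in E4. The order was reversed in the fifth decile of E4 (16.01 and 17.7 kb) and the weakest of WT (16.5 and 17.2 kb).

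**Figure D2:**
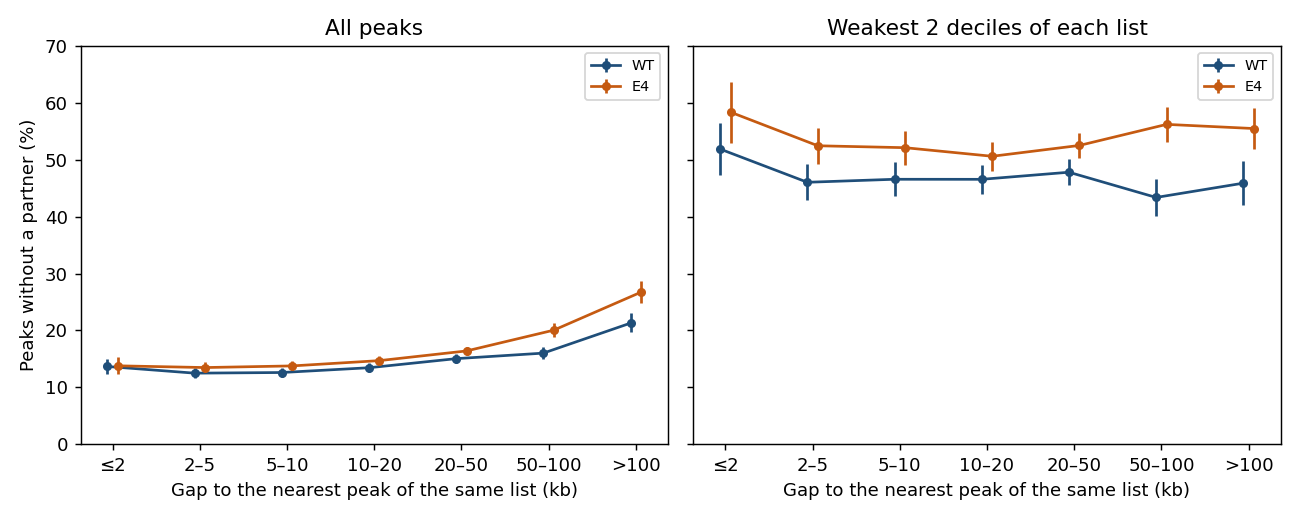
Share of peaks without a partner (%) by the gap to the nearest peak of the same list (kb), with exact 95% intervals, for all peaks (left) and for the weakest 2 deciles of each list (right). Over all peaks the share was 21.3% (WT) and 26.7% (E4) beyond 100 kb, while within the weakest deciles the WT share beyond 100 kb, 45.9%, was below the 51.9% within 2 kb.

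Few unmatched peaks lay close to a called peak of the other list. Peaks within a list were sparse too, with a median gap of 15.4 kb in WT and 15.7 kb in E4. Signal below the call limit was not examined, so these distances do not show how close a site came to being called. Only 57 unmatched WT peaks and 43 unmatched E4 peaks lay within 1 kb of a peak of the other list. The median distance from an unmatched peak to the nearest peak of the other list was 19.3 kb for WT and 22.2 kb for E4. It exceeded 50 kb for 1333 WT peaks (24.6%) and 1710 E4 peaks (27.8%). Of the unmatched peaks, 64.8% in WT and 63.4% in E4 had no unmatched peak of their list next to them. The share that the background of 14.4% and 16.1% alone would give was not computed. These values thus do not show whether unmatched peaks gather or stand apart. The others formed runs of neighbouring unmatched peaks, up to 9 in WT and up to 11 in E4.

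The strongest WT peak without a partner was chr19:21665877-21666910 (hg19), next to ZNF429 in a cluster of zinc-finger genes on chromosome 19. It was 1034 bp wide and had rank 99.7 with −log10 q 35.0, while its fold enrichment of 5.54 put it only at the 55.1 percentile of the list by fold. The nearest E4 peak was 406 kb away. The next 4 ranked between 85.4 and 86.7, with folds from 7.80 to 8.57. One was chr7:143018730-143019314 within CLCN1, the chloride channel gene of skeletal muscle, with an E4 peak 7.18 kb away. Another was chr9:90277577-90278260 within DAPK1, a gene for a kinase of cell death pathways, with an E4 peak 14.9 kb away. The peak chr8:20898456-20899161 between LZTS1 and GFRA2 was 605 kb from the nearest E4 peak. The last, chr5:135760344-135761072 between TRPC7 and SPOCK1, was 174 kb from it. Around 3 of these 5 peaks there was thus no E4 peak within 100 kb.

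The strongest E4 peaks without a partner reached lower ranks, from 68.5 to 74.1. Their −log10 q was not lower, at 12.97 to 15.1 against 12.46 to 12.96 for the WT peaks named above other than the strongest. The top one, chr21:30568472-30568995 (hg19), had −log10 q 15.1 and a fold of 9.95, and the nearest WT peak was 31.4 kb away. The peak chr9:29830741-29831245 lay beyond LINGO2, a gene of neuronal membrane proteins, in a region with few peaks, 138 kb from the nearest WT peak. The peak chr7:106842133-106842663 lay at the border of HBP1, a repressor gene of the WNT and cell cycle pathways, and COG5, a gene of Golgi transport. The other 2 were chr14:56806579-56807295 between PELI2 and TMEM260, and chr20:36871199-36871813 within KIAA1755.

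Peaks whose −log10 q reached 5 are called strong peaks below. This limit kept 53.5% of WT and 66.5% of E4 peaks, so it is not the same cut by rank in each list. Of the strong peaks, 391 of 20193 in WT (1.94%) and 758 of 25413 in E4 (2.98%) had no partner. The larger share was thus in E4 at this limit, but in WT in the upper deciles. Equal deciles span unlike values: the seventh ran from −log10 q 6.67 to 8.33 in WT and from 10.3 to 13.5 in E4. The WT peak at CCAT1, a long noncoding RNA gene upstream of MYC, was among them. This peak, chr8:128226838-128227809 (hg19), looked up because of the title of the series, had a fold of 7.15 and rank 74.9, and it took place 36 in order of −log10 q among those 391. The nearest E4 peak was 6.15 kb away. The CCAT1 peak lies on chromosome 8 beyond 85 Mb, in a segment described below. There 31 of 539 strong WT peaks (5.75%) lacked a partner, so a missing partner was not particular to CCAT1. In its bin of 5 Mb, from 125 to 130 Mb, 36 of 106 WT peaks (34.0%) lacked one.

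Chromosomes differed in their unmatched share. In WT, chromosome 8 had the highest share, 502 of 2014 peaks (24.9%, 23.05% to 26.9%), followed by chromosome 21 (22.3%), 17 (18.2%), 10 (18%) and 16 (17.4%). The lowest WT shares were on chromosome 6 (11.6%) and chromosome 1 (11.95%). In E4, chromosome 13 (23.1%), 4 (21.7%), 6 (19.5%) and 18 (19.3%) led, and chromosome 19 (9.74%), 17 (10.5%), 15 (11.4%) and 8 (11.9%) had the lowest shares. Chromosomes 8 and 17 were thus high in WT and low in E4, and the lists also differed in length there, with 0.852 E4 peaks per WT peak on chromosome 8 and 0.905 on chromosome 17. On chromosomes 4 and 13 the ratio was 1.10 and 1.09. Weak peaks alone also put chromosome 8 highest. Of the weakest 2 deciles of WT, 67.3% lacked a partner on chromosome 8 and 63.6% on chromosome 17, against 46.7% over all chromosomes and 34.9% on chromosome 6. Among strong WT peaks the unmatched share was 4.26% on chromosome 8 and 4.46% on chromosome 21, and 1.74% on chromosome 17, below the overall 1.94%. Without chromosome 8 the WT share was 13.8%.

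**Figure D3:**
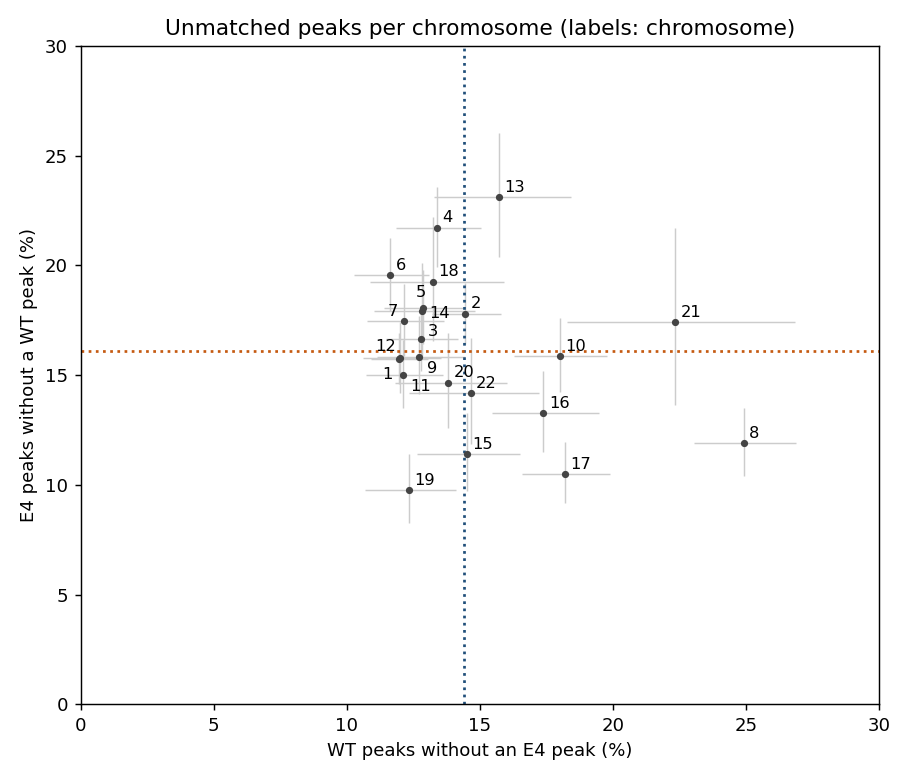
Share of WT peaks without an E4 peak (%, horizontal) and of E4 peaks without a WT peak (%, vertical) for chromosomes 1 to 22, each labelled by its number, with exact 95% intervals in grey. Dotted lines mark the shares over all 22 chromosomes, 14.4% and 16.1%. Chromosome 8 lies far right at 24.9% of WT peaks and low at 11.9% of E4 peaks, and chromosome 13 lies highest at 23.1% of E4 peaks.

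On chromosome 8 the unmatched WT peaks were concentrated in the outer part of the long arm. The borders used for this and 3 other end segments were chosen after the values had been seen. Their shares, rank differences and width ratios are thus descriptions. From 85 Mb to the end, 320 of 1043 WT peaks (30.7%, 27.9% to 33.6%) lacked an E4 partner, against 18.7% (16.3% to 21.3%) before 85 Mb. The share before 85 Mb was itself above the 14.4% over all chromosomes, and its bins of 5 Mb ran from 7.14% to 36.0%. The E4 list went the other way: 52 of 778 E4 peaks from 85 Mb on (6.68%) lacked a WT partner, against 16.2% before. This segment holds TRPS1 and EXT1, which are genes of skeletal growth, and the MYC region. It also contains RAD21, the gene of the cohesin ring's kleisin subunit. Of its WT peaks in the weakest 2 deciles, 77.4% were unmatched, and of its strong WT peaks, 31 of 539 (5.75%).

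Matched peaks of the same segment differed in rank and width too. Pairs in which each peak overlapped only the other numbered 31632 over all chromosomes, and both members of a pair were ranked among these pairs, so that the lists had equal length. On chromosome 8 from 85 Mb, the median WT rank less E4 rank was 12.6 percentile points over 705 pairs (10.8 to 14.4). Before 85 Mb it was −0.43 (−1.33 to 0.95). All 13 bins of 5 Mb in the segment had a positive median, from 8.24 to 18.03, against 6 of 16 bins before it. The median ratio of E4 to WT width was 0.896 in the segment and 1.16 before it. WT peaks of the segment were thus higher in rank and wider than their E4 partners, whereas over all pairs outside the 4 end segments E4 peaks were the wider ones, with a median ratio of 1.18.

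End segments of chromosomes 10, 16 and 17 also had high unmatched WT shares and low width ratios, with smaller rank differences. On chromosome 10 from 105 Mb, 147 of 508 WT peaks (28.9%, 25.03% to 33.1%) were unmatched, against 14.04% before. On chromosome 16 from 80 Mb, the segment of CDH13 and FOXF1, it was 93 of 328 (28.4%, 23.5% to 33.6%) against 14.05%. On chromosome 17 from 45 Mb, 240 of 1104 (21.7%, 19.3% to 24.3%) were unmatched against 14.3%. The width ratio of E4 to WT was 0.962 (0.931 to 1.01), 0.919 (0.881 to 0.975) and 0.949 (0.921 to 0.977) in these 3 segments, so the interval of chromosome 10 reached 1. Their median rank differences were 2.36 (0.77 to 4.10), 1.72 (0.57 to 3.94) and 0.28 points (−0.25 to 0.87), against −0.64 outside the 4 segments. Those of chromosomes 10 and 16 thus had the sign of chromosome 8 at a smaller size. Of their strong WT peaks, 2.41%, 1.09% and 1.54% lacked a partner, near the 1.84% outside the 4 segments. Together the 4 segments held 7.91% of WT peaks and 14.8% of the unmatched ones, and outside them the WT share was 13.3%.

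**Figure D4:**
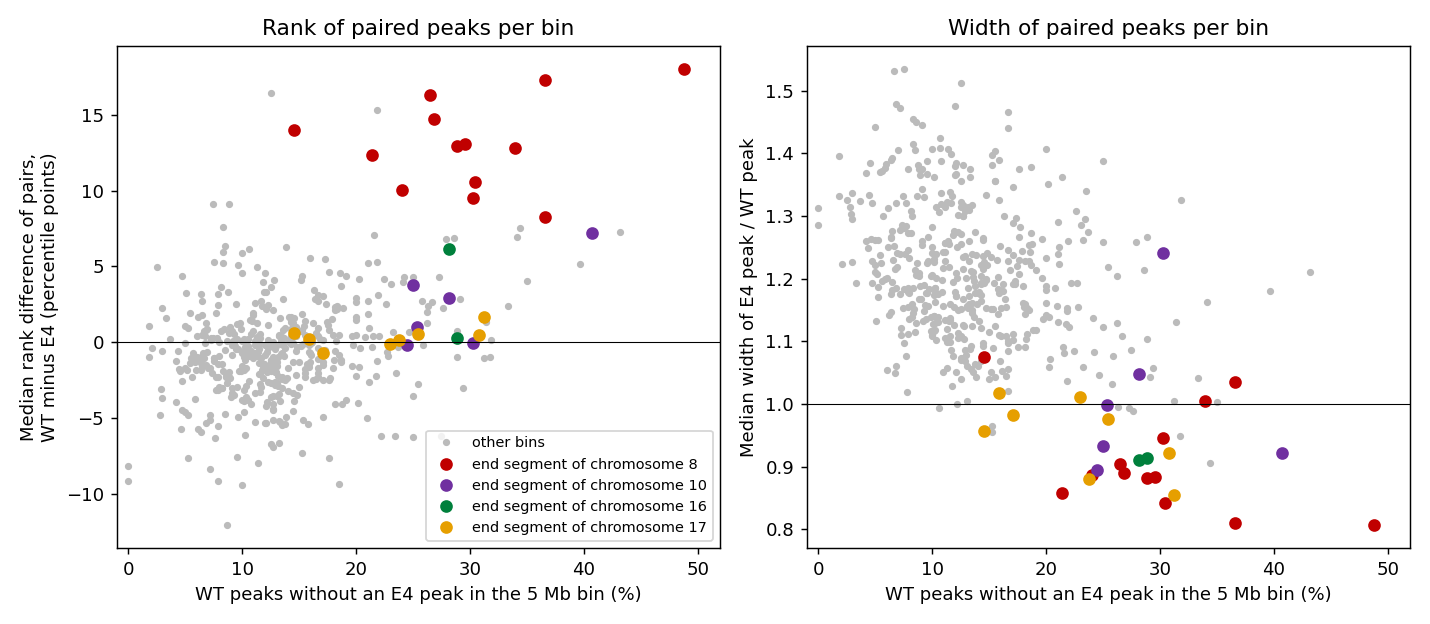
Each point is a bin of 5 Mb with at least 20 pairs. The horizontal axis is the share of its WT peaks without an E4 peak (%), and the vertical axes are the median rank difference of its pairs (WT minus E4, percentile points, left) and the median ratio of E4 to WT width (right). All bins of the 4 end segments, drawn in colour, lie to the right of 14.4%, the share over all chromosomes. The 13 of chromosome 8 stand at 8.24 points or more on the left, while those of the other 3 segments lie between −0.69 and 7.20.

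Bins of 5 Mb were then read one by one. With at least 20 peaks required, 527 bins could be read for WT and 535 for E4, and a bin stood out when the lower bound of its share exceeded 2 times the share over all chromosomes. In WT, 3 bins stood out. On chromosome 8 at 135 to 140 Mb, the region of ZFAT, KHDRBS3 and COL22A1, 20 of 41 WT peaks (48.8%) lacked a partner and 0 of 22 E4 peaks did. In the next bin, 140 to 145 Mb with TRAPPC9, PTK2 and ARC, it was 64 of 175 (36.6%) in WT and 3 of 116 in E4. The bin at 125 to 130 Mb on chromosome 10, with CTBP2, ADAM12 and DOCK1, had 46 of 113 (40.7%). None of these 3 stood out with strong peaks only, where 1 bin from 165 Mb on chromosome 6 did. Nor did they in bins of 10 Mb, where 1 from 20 Mb on chromosome 19 did. In E4, 1 bin stood out, at 80 to 85 Mb on chromosome 1 with ADGRL2 and PRKACB, where 25 of 39 E4 peaks (64.1%, 47.2% to 78.8%) lacked a WT partner. This bin held 18 WT peaks, too few to be read for WT, so it passed the limit only through the list in which it is high. It no longer stood out with larger or offset bins, a higher peak minimum or strong peaks only. All 29 readable bins of the 4 segments lay above the overall WT share, which the choice of the segments fixes in part. The width ratio was under 1 in 22 of 29, against 8 of 486 elsewhere, a contrast that this choice may also fix in part.

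The lowest WT shares were in 3 bins, of which 2 held no unmatched WT peak. At 80 to 85 Mb on chromosome 7, where HGF, the semaphorin genes SEMA3C and SEMA3A and the synaptic gene PCLO lie, 0 of 38 WT peaks lacked a partner, which allows a share of up to 9.25%, while 21 of 57 E4 peaks did. At 45 to 50 Mb on chromosome 14, with FANCM and MDGA2, it was 0 of 34 WT and 15 of 49 E4 peaks. At 125 to 130 Mb on chromosome 5, with the lamin gene LMNB1 and the fibrillin gene FBN2, it was 1 of 56 WT and 15 of 70 E4 peaks. Each of these bins held more E4 than WT peaks. The lowest E4 shares, besides the chromosome 8 bins, were at 205 to 210 Mb on chromosome 1 with IL10, CD55 and CR1, where 3 of 115 E4 peaks were unmatched.

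Rank differences of 10 points or more were found in 14 of 515 bins with at least 20 pairs. WT ranked higher in 13, of which 11 were on chromosome 8. The largest were at 135 Mb (18.03 points), 105 Mb (17.3) and 115 Mb (16.3) on chromosome 8, at 50 Mb on chromosome 18 (16.4) and at 35 Mb on chromosome 13 (15.3), each position being the start of the bin. E4 ranked higher by 10 points or more in 1 bin, at 65 to 70 Mb on chromosome 4, the region of the ephrin receptor gene EPHA5, with a median of −12.1. The next were at 30 Mb on chromosome 3 (−9.42), 90 Mb on chromosome 5 (−9.33), 80 Mb on chromosome 7 (−9.17) and 15 Mb on chromosome 8 (−9.14). This last bin lies on the short arm of chromosome 8, so the 2 arms held bins at opposite ends of the scale.

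Over all pairs, matched peaks kept much of their order. Spearman's rank correlation across the 31632 pairs was 0.781 for −log10 q and 0.571 for width, across peaks of 2 libraries and with no test. The median absolute rank difference was 11.2 points. E4 was the wider member in 66.8% of pairs, with a median width ratio of 1.16 (log2 0.22, 0.21 to 0.23) and medians of 818 bp against 686 bp. The midpoints of a pair lay a median of 84 bp apart. The WT peak lay wholly inside the E4 peak in 42.4% of pairs and the E4 peak inside the WT peak in 13.8%. Besides these pairs, 311 E4 peaks overlapped more than 1 WT peak and 64 WT peaks overlapped more than 1 E4 peak.

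In 474 pairs the ranks differed by more than 50 points, with WT higher in 307 and E4 higher in 167. The widest difference was at chr2:127534734-127535380 (hg19) near GYPC, the glycophorin C gene, where the pair ranks were 96.6 in WT and 9.83 in E4. At chr20:23704214-23704905 near CST1, a cystatin gene, the pair ranks were 91.4 and 7.01. At chr5:147202050-147202773 near SPINK1, a trypsin inhibitor gene, they were 90.9 and 11.1. In these 3 pairs the E4 peak was the narrower one, at 575, 360 and 345 bp against 647, 692 and 724 bp. In the other direction, the peak chr20:60711494-60712417 at PSMA7, a proteasome subunit gene, ranked at 13.2 in WT and 92.6 in E4. Near SLC48A1, a haem transporter gene, the peak chr12:48160678-48162495 ranked at 11.97 and 82.4. At chr6:116433013-116433729 within NT5DC1, close to COL10A1, the ranks were 7.93 and 76.9. Widths did not mirror the first 3 pairs: E4 peaks were 1009, 1092 and 737 bp wide against 924, 1818 and 717 bp in WT, so the E4 peak near SLC48A1 was the narrower one despite its higher rank. At all 6 sites both libraries had a called peak, so presence alone does not show these differences.

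Several stretches between neighbouring peaks of one list held a group of peaks of the other. They were looked up after the values had been seen. Of 4401 stretches free of E4 peaks that held a WT peak, 22 held at least 2 strong WT peaks, and 2 held 3. One was 485 kb long on chromosome 17, from MAP2K4 to MYOCD, the gene of a cardiac and smooth muscle coactivator, with 4 WT peaks up to rank 82.3. The other was 934 kb long on chromosome 10, from CCSER2 to GRID1, a glutamate receptor gene, with 9 WT peaks at ranks from 2.27 to 78.6. The stretch of 2002 kb around the ZNF429 peak on chromosome 19 held 6 WT peaks and that of 1348 kb from LZTS1 to GFRA2 on chromosome 8 held 9. Of 4963 stretches free of WT peaks that held an E4 peak, 33 held at least 2 strong E4 peaks, and 4 at least 3. Among stretches over 1000 kb, 25 held a strong WT peak and 15 a strong E4 peak. Of these, 7 held at least 2 strong WT peaks and 3 at least 2 strong E4 peaks, too few to compare. Among stretches of any length free of WT peaks, the richest in strong E4 peaks was 668 kb long. It lay on chromosome 2 at CTNNA2, a catenin gene of neurons, with 7 E4 peaks, of which 4 were strong. The longest run of unmatched E4 peaks, chr4:61039518-63110036 (hg19) at ADGRL3, an adhesion receptor gene, held 11 peaks at ranks up to 39.0.

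Peaks at chosen genes were read in windows of the gene with 10 kb on either side. In the windows of the genes for CTCF and cohesin, 22 of 25 WT peaks and 22 of 25 E4 peaks had a partner. Over all chromosomes 85.6% and 83.9% had one, so these counts do not set the group apart. Both peaks at CTCF itself were matched, with a top rank of 97.03 in WT and 98.7 in E4, and E4 had 1 more, at rank 36.0. The 5 peaks at STAG1, a cohesin subunit gene, and the 3 at MAU2, a gene of the cohesin loader, were present in both lists. RAD21 had 2 weak WT peaks, at ranks 11.4 and 3.92, and 0 E4 peaks. ESCO1, a gene of cohesin acetylation, had 1 unmatched WT peak at rank 20.3. NIPBL, the gene of the other cohesin loader subunit, and PDS5B, a gene of a cohesin regulator, each had 1 unmatched E4 peak, at ranks 24.7 and 47.8. Neither list had a peak at WAPL, the gene of the cohesin release factor.

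Cluster loci, where CTCF separates neighbouring genes or imprinted domains, had 54 of 72 WT peaks and 53 of 62 E4 peaks matched. Of the 18 unmatched WT peaks, 10 lay at the protocadherin clusters on chromosome 5, whose genes encode neuronal surface proteins from alternative promoters. These clusters held 18 WT peaks in all, and the 10 without an E4 partner ranked from 1.65 to 52.9. Of their 10 E4 peaks, 2 had no WT partner. At the 4 HOX clusters, which hold the homeobox genes of body axis patterning, all 10 WT peaks at HOXB and all 6 at HOXD had a partner, as did 8 of 11 at HOXA and 5 of 6 at HOXC. In E4, all 8 peaks at HOXA and all 6 at HOXD had one, as did 10 of 11 at HOXB and 5 of 7 at HOXC. Against the background of 14.4% and 16.1% without a partner, such counts do not set the HOX clusters apart. The protocadherin clusters, with 10 of 18 WT peaks unmatched, lay above the 14.4%. The unmatched share depends on rank, with 58.5% in the weakest WT decile, and no share at like rank was computed for them. At the imprinted IGF2-H19 locus 8 of 9 WT and 7 of 8 E4 peaks were matched. At MEST, also imprinted, the single pair ranked at 64.1 in the WT list and 89.1 in the E4 list. At GNAS the top ranks, which need not belong to 1 pair, were 50.1 and 85.5. Ranked among pairs, WT rank less E4 rank was −28.6 at MEST and a median of −17.1 over 3 pairs at GNAS. Both were within the 90th percentile of the absolute difference over all pairs, 32.3 points. Neither list had a peak at PEG3 or the beta-globin window.

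At genes of WNT feedback, 21 of 23 WT peaks and 21 of 27 E4 peaks had a partner, against 85.6% and 83.9% over all chromosomes. RNF43 and ZNRF3, which encode ubiquitin ligases that remove WNT receptors, had matched peaks only, 1 and 5 in each list. AXIN2, a gene of the beta-catenin destruction complex, had 1 matched pair and a weak E4 peak at rank 10.3. LEF1, a transcription factor gene of the pathway, had 1 WT peak and 3 E4 peaks, of which the unmatched ones ranked at 28.7 and 15.5. LGR5, the R-spondin receptor gene of intestinal stem cells, had 1 pair, at rank 45.3 in WT and 23.5 in E4. Its difference among pairs, 23.4 points, was also within the 90th percentile of 32.3 points. SP5 had 1 peak in each list that did not overlap, 9.02 kb apart. At colon epithelial genes 15 of 16 WT and 14 of 17 E4 peaks were matched, including both peaks at each of CDX1 and CDX2, transcription factor genes of intestinal identity, with top ranks from 98.4 to 99.1. KRT20, a keratin gene of differentiated colon cells, had 0 WT peaks and 2 E4 peaks, at ranks 17.9 and 4.11. With so few peaks a group, the intervals were wide. The interval of the matched share was 68.8% to 97.5% for the genes of CTCF and cohesin. For WT peaks at the cluster loci it was 63.4% to 84.5%. For WNT feedback genes it was 72.0% to 98.9% in WT and 57.7% to 91.4% in E4. For colon epithelial genes it was 69.8% to 99.8% and 56.6% to 96.2%. The WNT and colon intervals hold the shares over all chromosomes, so the counts do not set either group apart.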

How the data were processed

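CTCF was measured by chromatin immunoprecipitation and sequencing in 1 library per population, and the authors deposited 1 broad peak list per library. Its fold enrichment (a ratio) and its −log10 q per peak are the authors' values. Peaks were ranked within their own list, since these values depend on depth and background, and 1 limit of −log10 q was also applied to both lists. MACS2 2.2.7.1, CASAVA 1.8.2, bedtools 2.29.2, Picard 2.23.1 and the build hg19 are listed in the submitters' processing notes, with no role or order. Which aligner and call settings were used is not given in the sources used here. In the deposited lists the lowest −log10 q was 1.02 (WT) and 1.01 (E4). Starts were written 1-based.

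Overlap, widths, edge-to-edge gaps and percentiles were computed in Python 3.11.15 with numpy 2.4.6, pandas 2.3.3 and scipy 1.17.1, and the code was tested on simulated lists. Peaks were placed in bins by their midpoints. Libraries were grouped by their labels. Named peaks were the 5 strongest unmatched per list (no peak of the other within 1 kb), the 3 widest and the 3 overlapping most partners. The 3 pairs with the largest rank difference each way were also named. Named bins were those standing out, the 3 lowest and the 5 most extreme in rank. Members, lists and windows were chosen with earlier results of these data known. Gene positions come from general knowledge of hg19. All 34 single genes of the windows and 81 other genes were found on the same chromosome in a RefSeq table of another assembly (GRCh38), from which no coordinate was taken. No hg19 sequence was used, so none is shown.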

Additional observations from a re-analysis of the deposited data

How the results depend on the processing

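Of 35 alternative values, 0 reversed, 21 moved and 14 did not. Shares, medians and ratios counted as moved outside the 95% interval of the main value, and counts outside 1.5 times the main count. The matched share was 91.3% of WT and 72.2% of E4 peaks when both lists were cut at −log10 q 5, and 98.1% and 97.02% with that limit on the counted list only. It was 81.4% and 74.7% when 50% of a peak had to be covered, and 82.4% and 81.9% among the 20000 strongest peaks of each list. For E4 cut to 37735 peaks it was 84.8%. The number of bins that stand out was 1 for WT and 0 for E4 when cut at −log10 q 5, and 1 and 2 in bins of 10 Mb. For E4 it was 4 with bins offset by 2.5 Mb and 0 with at least 50 peaks a bin. The chromosome 8 and 10 bins stood out neither at that −log10 q nor at 10 Mb, and the chromosome 1 bin of E4 in none of these 4 settings, but still at equal list length. Bins with a rank difference of 10 points numbered 7 at 10 Mb and 4 with at least 50 pairs, and all with WT higher were on chromosome 8. Ranked by fold enrichment they numbered 21, with WT higher in 13, of which 8 were on chromosome 8, and E4 higher in 8. By fold enrichment, unmatched peaks had a median rank of 14.2 (WT) and 14.9 (E4). The median log2 width ratio was 0.23 over every overlapping pair, and the gap ratio of WT was 1.75 with both lists cut at −log10 q 5. The causes were not tested. No paired analysis was possible because each population had 1 library and none could be left out. Unknown depth limits what a missing peak shows.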

Other observations

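The 3 widest peaks of each list all had a partner. In WT they were chr19:10526894-10532305 (hg19, 5412 bp) at the start of PDE4A, a phosphodiesterase gene, chr3:53229549-53234393 (4845 bp) between PRKCD and TKT, and chr17:72858189-72862989 (4801 bp) at GRIN2C and FDXR. In E4 they were chr19:12884341-12890115 (5775 bp) at HOOK2, chr12:57632318-57638027 (5710 bp) at the end of STAC3, and chr19:10526783-10532346 (5564 bp), again at PDE4A. The PDE4A peak thus ranked among the 3 widest of each list. It ranked at 97.9 by −log10 q in WT and at 97.8 in E4.

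Among peaks that overlapped several peaks of the other list, the E4 peak chr18:30129049-30133150 overlapped 3 WT peaks. The E4 peaks chr17:48275391-48278869 at COL1A1, a collagen gene, and chr10:6128148-6131426 at the start of RBM17, a splicing factor gene, overlapped 2 each. They ranked at 99.9 and 99.7. The WT peaks that overlapped 2 E4 peaks and ranked highest were chr3:13689543-13692589, chr8:143713474-143716917 and chr17:77978650-77983441, the last within TBC1D16, at ranks from 99.0 to 99.3.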
